A study of Mus musculus with 3 samples.

Results

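The genes described here are 10 leukocyte integrin subunits and integrin activators, measured in thymocytes of wild-type mice. They were taken by name as the probe sets whose platform annotation gave a single gene symbol equal to Itgal, Itga4, Itga6, Itgae, Itgb1, Itgb2, Itgb7, Tln1, Fermt3 or Rap1a. All 10 were found, each with 1 probe set, among 19938 named genes. The data are Affymetrix mouse gene arrays of total RNA from 3 mice, numbered 92, 103 and 106, with a genotype of wt and a mixed genetic background of FVB and C57BL6. These mice are the normal arm of a study of T cell lymphoma in tPTEN-/- mice. The lymphomas were not analysed here, and no comparison between conditions was made. Each RNA sample had 0.3 µg and an RNA integrity number of 3 in the labels. Their disease state field reads T cell lymphoma, which goes against the titles and the genotype. The labels give neither the age nor the sex of the mice. The sex-linked transcripts set mouse 92 apart: Xist, transcribed from the inactive X chromosome of females, was at 5.30, 11.85 and 11.67 in mice 92, 103 and 106, and the Y-linked Eif2s3y at 10.42, 3.59 and 3.55 (log2). By these transcripts mouse 92 was male and the other mice female, so a difference of mouse 92 from both others cannot be told apart from sex.

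Integrins are adhesion receptors made of an alpha and a beta subunit, and each pair binds its own set of ligands on other cells or in the matrix. On resting leukocytes they are held in a bent state with low affinity. Signals from antigen or chemokine receptors load the small GTPase RAP1 with GTP, which brings talin to the beta subunit tail, where talin and a kindlin open the receptor. In the thymus, integrins take part in the entry of progenitors, in contacts between thymocytes and stromal cells, and in the movement of thymocytes between cortex and medulla.

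All 10 genes were well above background on every array. Background was set at the 95th percentile of 1203 receptor genes of the nasal epithelium (olfactory, vomeronasal or trace amine receptors), at log2 thresholds of 5.91 in mouse 92, 6.10 in mouse 103 and a value between them in mouse 106. By this rule 61.8% of all named genes passed on all 3 arrays. The smallest margin of any member over the threshold of its array was 2.21, for Itgae, and the largest was 5.27, for Itgal, both on the log2 scale. Probes differ in affinity, so levels are compared between mice for the same gene and not between genes. All 7 measured thymocyte markers (Cd3e, Cd3g, Cd4, Cd8a, Rag1, Ptcra and Thy1) also passed on the 3 arrays. In whole thymocyte RNA, a smaller share of cells that transcribe a gene and less RNA per cell cannot be told apart.

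Promoter sequence was at hand in RefSeq (GRCm38.p6) for 5 of the 10 members, as windows of 300 bases that run from 250 bases before to 50 bases after a transcription start. The 4 windows below set a pair of genes transcribed in most tissues, Itgb1 and Tln1, beside a pair whose known expression centres on blood cells, Itgb7 and Fermt3. Capitals mark matches, on either strand, to GGAAGT (an ETS factor motif), TGTGGT (a RUNX factor motif) or GGGCGG (a GC box), and the sequences run 5′ to 3′ along the gene.
Itgb1: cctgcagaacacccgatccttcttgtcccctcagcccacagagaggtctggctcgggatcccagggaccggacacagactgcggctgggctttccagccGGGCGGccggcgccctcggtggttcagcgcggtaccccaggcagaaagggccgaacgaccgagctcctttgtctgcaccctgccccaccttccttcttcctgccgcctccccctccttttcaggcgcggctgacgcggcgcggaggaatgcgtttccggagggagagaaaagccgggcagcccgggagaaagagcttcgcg
Tln1: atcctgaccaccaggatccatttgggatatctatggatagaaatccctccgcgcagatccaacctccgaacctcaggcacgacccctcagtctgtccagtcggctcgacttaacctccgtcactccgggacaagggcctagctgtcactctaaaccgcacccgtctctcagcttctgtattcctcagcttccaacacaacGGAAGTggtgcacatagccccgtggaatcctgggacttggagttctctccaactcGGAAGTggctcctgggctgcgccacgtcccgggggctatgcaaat
Itgb7: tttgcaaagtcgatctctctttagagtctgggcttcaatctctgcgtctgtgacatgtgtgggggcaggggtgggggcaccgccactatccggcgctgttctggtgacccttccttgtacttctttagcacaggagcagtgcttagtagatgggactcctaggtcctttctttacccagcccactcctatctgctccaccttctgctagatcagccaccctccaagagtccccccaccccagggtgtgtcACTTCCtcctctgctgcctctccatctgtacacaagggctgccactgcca
Fermt3: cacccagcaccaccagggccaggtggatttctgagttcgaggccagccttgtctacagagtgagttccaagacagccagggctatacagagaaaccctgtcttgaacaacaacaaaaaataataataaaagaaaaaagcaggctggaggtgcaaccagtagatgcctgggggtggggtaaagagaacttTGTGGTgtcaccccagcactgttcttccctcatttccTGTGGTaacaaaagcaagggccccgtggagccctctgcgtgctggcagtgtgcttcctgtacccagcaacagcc
The Itgb1 window lies at chr8:128685404-128685703 on the plus strand, and the Tln1 window at chr4:43562534-43562833 on the minus strand. Those of Itgb7 (chr15:102231886-102232185) and Fermt3 (chr19:7019420-7019719) are both on the minus strand. CpG dinucleotides numbered 27 for Itgb1 and 16 for Tln1, 5 for Itgb7, 3 for Fermt3 and 10 for Itga4, with a median of 7 over 32851 mouse windows of the same length. Fermt3 held 2 matches to the RUNX motif, 61 and 24 bases before the start, and Tln1 held 2 matches to the ETS motif, of which 1 lay 50 bases before it. Itgb7 held 1 ETS match, at the start itself, and Itgb1 held a GC box 151 bases before its start. Itga4 (chr2:79255176-79255475, plus strand), whose window is not printed, held 1 RUNX match 60 bases and 1 GC box 114 bases before the start. Of all windows, 23.8% held the ETS motif, 16.8% the RUNX motif and 35.7% the GC box. A match describes these letters and does not show that a factor binds there.

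Among the alpha subunits, Itgal and Itga4 gave almost the same level in the 3 mice, whereas Itga6 differed the most of all members. Itgal encodes the alpha chain of the lymphocyte receptor for ICAM ligands. Mouse 92 had a level of 11.40, mouse 103 of 11.37 and mouse 106 of 11.43 on the log2 scale, a mean of 11.40 ± 0.031 (SD, n = 3). Its range over the mice was 1.04-fold. Itga4 encodes the alpha chain that binds VCAM1, fibronectin or MAdCAM-1, depending on its partner. Its levels were 10.07, 10.12 and 10.08 in mice 92, 103 and 106 (10.09 ± 0.028, SD, n = 3, log2), again a range of 1.04-fold. An SD no larger than that of Itgal was found for 3.87%, and no larger than that of Itga4 for 3.02%, of the 13316 genes tested. These small SDs depend on the scaling of the arrays: the SD of Itgal was 0.090 after median centring and that of Itga4 0.075 after quantile normalisation.

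Itga6 encodes a laminin receptor chain that also marks epithelial cells, platelets and progenitor cells. Mouse 92 had 11.20, mouse 103 had 10.53 and mouse 106 had 11.01 (10.91 ± 0.35, SD, n = 3, log2). Mouse 103 was lowest, and mouse 92 was 1.60-fold and mouse 106 1.39-fold above it, while mouse 92 exceeded mouse 106 by 1.14-fold. The spread of Itga6 had an unadjusted p of 0.0170 and an adjusted p of 0.759 in the limma variance test, so it did not pass. The array identifiers in the descriptions of mice 92 and 106 begin with 30 common digits of 32, and that of mouse 103 shares 9 with either; what the digits mean is not stated, and their part in the low Itga6 value of mouse 103 was not tested.

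Itgae encodes the alpha chain that joins Itgb7 and binds E-cadherin, and it is carried by a part of the CD8 lineage, regulatory T cells and intraepithelial lymphocytes. Mouse 92 read 8.12, mouse 103 read 8.32 and mouse 106 read 8.39 (8.28 ± 0.14, SD, n = 3, log2), a range of 1.20-fold with mouse 92 lowest.

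**Figure D1:**
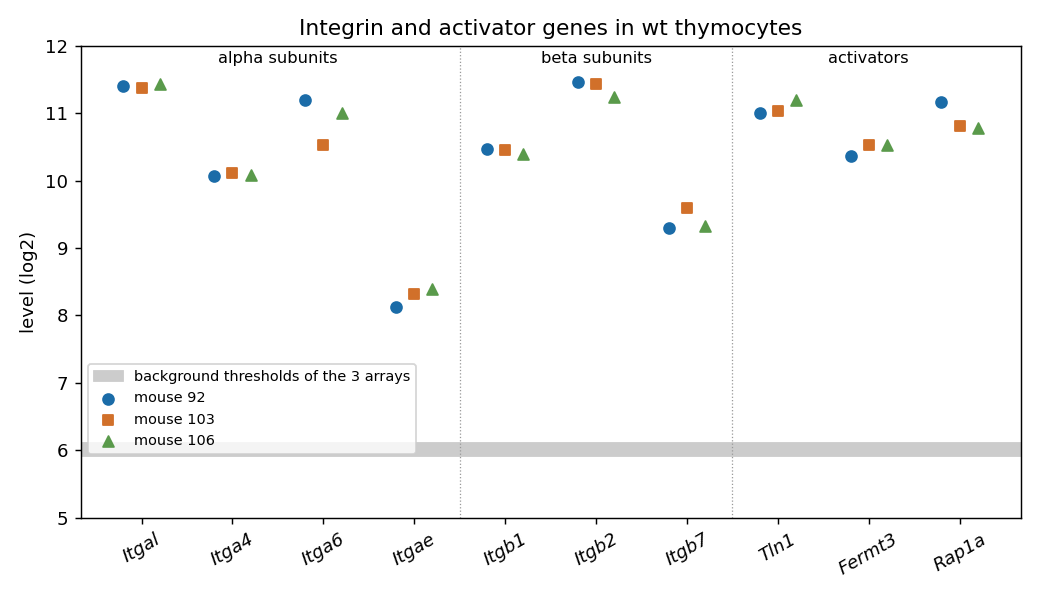
Levels (log2) of the 10 integrin and activator genes, with 1 point per mouse and the grey band spanning the background thresholds of the 3 arrays, 5.91 to 6.10. Every point lies above the band, and the points of Itga6 lie farthest apart, between 10.53 in mouse 103 and 11.20 in mouse 92.

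The beta subunits had SDs from 0.045 to 0.16 on the log2 scale, against a median of 0.13 over all genes tested. Itgb1, the shared partner of many matrix-binding alpha chains, was at 10.47, 10.46 and 10.39 in mice 92, 103 and 106 (10.44 ± 0.045, SD, n = 3, log2). Itgb2, the beta chain of the leukocyte receptors for ICAM and complement fragments, had levels of 11.46, 11.43 and 11.25 likewise (11.38 ± 0.12, SD, n = 3, log2). Both genes read highest in mouse 92 and lowest in mouse 106, by 1.06-fold for Itgb1 and 1.16-fold for Itgb2. Itgb7, the partner of Itga4 in gut homing and of Itgae, was at 9.30, 9.59 and 9.33 (9.41 ± 0.16, SD, n = 3, log2), highest in mouse 103 by 1.22-fold over mouse 92. The order of the mice for Itgb1, Itgb2 and Itgb7 changed under another scaling of the arrays (quantile, cyclic loess or median centring), as it did for Itgal, Itga4, Tln1, Fermt3 and Rap1a, and it held for Itga6 and Itgae under the 3 scalings tried.

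The partners of these subunits were read by the same background rule. Of the 4 alpha chains that pair with Itgb2 in the mouse, 4 passed on all arrays: besides Itgal these were Itgam, Itgax and Itgad, which are known chiefly from myeloid cells. Of these, Itgax had 6.20, 6.51 and 6.45 and Itgad 6.29, 6.45 and 6.45 in mice 92, 103 and 106 on the log2 scale, close to the thresholds of 5.91 to 6.10. Both alpha partners of Itgb7, Itga4 and Itgae, passed. Of 12 alpha chains known to pair with Itgb1, 7 passed on all arrays, 2 (Itga9 and Itga11) on some arrays and 3 (Itga1, Itga2 and Itga8) on none, a share near the 61.8% of all named genes. Among the 7, Itga3, Itga5 and Itga7 passed by smallest margins of only 0.065, 0.17 and 0.20 on the log2 scale. Itga3, Itga5, Itga7 and Itga10 lay below the 99th percentile of the receptor genes on every array. The fibronectin receptor chain Itga5 was at 6.55, 6.27 and 6.78 (log2, mice 92, 103 and 106). Itgav, a chain that binds RGD-containing ligands, was at 8.79, 8.77 and 8.88. Itga6 can also pair with Itgb4, the chain of epithelial hemidesmosomes, which was at 6.69, 7.00 and 6.75. Itgb3, which joins Itgav or the platelet chain Itga2b, was at 8.29, 8.51 and 8.62.

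The intracellular activators were transcribed in all 3 mice. Tln1, the talin of blood cells and most other tissues, was at 10.998, 11.03 and 11.20 in mice 92, 103 and 106 (11.08 ± 0.11, SD, n = 3, log2). Fermt3, which encodes kindlin-3 and is mutated in human leukocyte adhesion deficiency with bleeding, was at 10.37, 10.52 and 10.53 (10.48 ± 0.093, SD, n = 3, log2). Tln1 ranged 1.15-fold and Fermt3 1.12-fold over the mice. Their relatives, listed in log2 for mice 92, 103 and 106, gave a different picture. Fermt1 (4.41, 4.41 and 4.37) and Fermt2 (5.57, 5.71 and 5.78), the kindlins of epithelial and mesenchymal cells, were below background on every array. Tln2, at 6.28, 6.40 and 6.50, was above background on all 3, by a smallest margin of only 0.30. On every array Tln2 lay below the 99th percentile of the receptor genes. Below background means only that the probes did not exceed the 95th percentile of the receptor genes.

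Rap1a, a GTPase that couples receptor signals to talin, had the second widest spread among the members. Mouse 92 read 11.17, mouse 103 read 10.80 and mouse 106 read 10.79 (10.92 ± 0.22, SD, n = 3, log2), so that mouse 92, male by its transcripts, was 1.29-fold above mouse 103 and 1.31-fold above mouse 106. A further probe set, annotated to Rap1a together with Gm9392 and therefore left out of the level, read 10.81, 10.32 and 10.51 in the same order, also highest in mouse 92. The paralogue Rap1b, whose coding sequence is close to that of Rap1a, read 12.08, 11.71 and 11.80. Probes of these closely related genes may share signal, so their values are not independent. The variance test did not call Rap1a (adjusted p = 0.996, limma) or Rap1b (adjusted p = 0.996, limma).

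No member was called as varying between the mice. The test set each gene's variance over the 3 arrays against the variance that limma's prior gives for its level, over 13316 genes above background on at least 1 array. Of these, 30 genes, or 0.225%, passed at a Benjamini-Hochberg adjusted p under 0.05, with 0 members among them; 646 genes, 4.85%, and 1 member, Itga6, had an unadjusted p under 0.05. With a robust prior, the count of members called was also 0. The smallest adjusted p of a member was 0.759 (limma), for Itga6, and the other 9 had adjusted p-values from 0.996 to 0.998. The median SD was 0.11 over the members and 0.13 over all genes tested, on the log2 scale.

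The precision of 3 arrays limits this result. A member needed an SD between 0.68 and 0.75 on the log2 scale to be called, depending on its level. On data simulated for the 13316 genes with a shift in 1 mouse, 0 of 100 genes moved by 1 and 73 of 100 moved by 2 on the log2 scale were recovered. Without a shift the simulated data gave 0 calls, against 30 genes called in the measured data, so the simulation does not copy the measured data fully. The SD of Itga6, 0.35, was below the SD needed, so differences between mice of that size were below what this design could call.

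**Figure D2:**
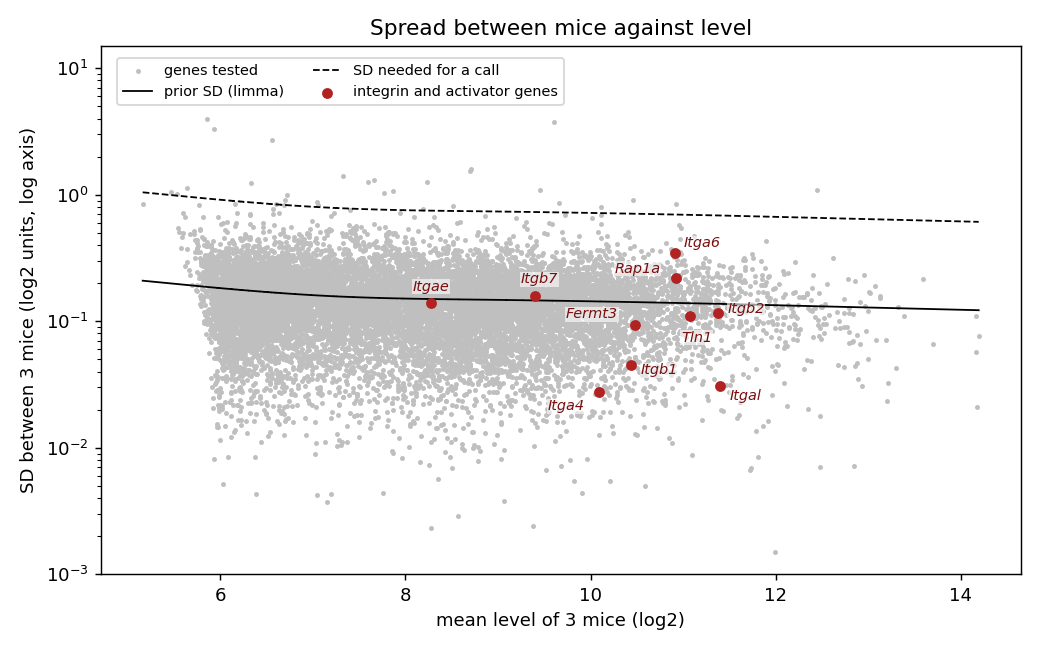
SD between the 3 mice (log2 units, drawn on a log axis) against mean level (log2) for 13316 genes tested, with the 10 integrin and activator genes in red. The solid line is the SD that limma's prior gives for each level and the dashed line the SD needed for a call; all 10 lie below the dashed line, with Itga6 nearest to it at 0.35.

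The members did not lean to the same mouse. Mouse 92 gave the lowest level for 5 of the 10 members, against 35.1% of all genes tested. Mouse 103 was lowest for 2 members (28.3% of genes tested) and mouse 106 for 3 (36.6%). Mouse 92 also gave the highest level for 4 members, against 37.4% of genes tested, mouse 103 for 2 (39.1%) and mouse 106 for 4 (23.6%). The median deviation of the members from their 3-mouse means was -0.012, 0.025 and 0.011 in mice 92, 103 and 106 on the log2 scale, and that of all genes tested was 0.0021, 0.018 and -0.024. With each array centred on its median, which shifted mouse 92 by 0.061 and mouse 103 by -0.075, mouse 92 was lowest for 2 members. After quantile or cyclic loess normalisation mouse 92 was lowest for 6 members.

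Marker lists of other blood cells had wider spreads, with a median SD of 0.93 for neutrophil, 0.56 for B cell and 0.33 for erythroid genes, against 0.11 for the members (log2). It was 0.30 for gamma-delta T and NK cell, 0.24 for macrophage and dendritic cell and 0.15 for platelet genes. Thymic epithelial genes had 0.22, fibroblast and endothelial genes 0.12 and thymocyte genes 0.081. The neutrophil list was lowest in mouse 92 for all 12 measured genes, with a summed level of 9.81, 11.90 and 11.63 in mice 92, 103 and 106 on the log2 scale. Of those 12, 7 were above background on all arrays and 1, Cxcr2, on none. Within the list Ngp, a granule protein gene, was at 6.88, 9.63 and 9.61 (adjusted p = 2.34e-04, limma). The B cell list was likewise lowest in mouse 92 for 9 of 9 genes, 6 of them above background throughout, with sums of 9.99, 11.11 and 10.75 and Cr2, a complement receptor gene, at 5.74, 7.32 and 7.01 (adjusted p = 0.0482, limma). The Cr2 value of mouse 92 lay below the threshold of its array, so that Cr2 entered the test only through the mice where it was higher. Cr2 was the only call among the 9 B cell genes tested. Of the 11 neutrophil genes tested, 6 were called, among them Mmp8, which was above background on 1 array only. Of all genes tested, 0.225% were called. Erythroid markers summed to 9.42, 10.76 and 10.58 with 5 of 6 above background and 4 of 6 lowest in mouse 92. Alas2, an enzyme of haem synthesis, was at 8.18, 10.14 and 10.03 (adjusted p = 0.00291, limma), the only call among 5 erythroid genes tested. Hemgn, at 6.40, 6.36 and 6.39, and Epor, at 6.50, 6.59 and 6.47, were nearly level. The thymocyte markers summed to 15.59, 15.45 and 15.50.

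Several members are also transcribed in those cells. Itgb2, Tln1 and Fermt3 are used by neutrophils, and Itga4 and Itgb7 by B cells. Against the neutrophil sums, mouse 92 differed from mouse 103 by 0.035 for Itgb2, -0.029 for Tln1 and -0.16 for Fermt3 on the log2 scale, and from mouse 106 by 0.22, -0.20 and -0.16. Beside the B cell sums, the same differences were -0.29 and -0.024 for Itgb7 and -0.052 and -0.011 for Itga4. Both genes, like those sums, were lowest in mouse 92 and highest in mouse 103. After median centring, Itgb7 was lowest in mouse 106 and Itga4 in mouse 103. Itgam, the neutrophil and macrophage partner of Itgb2, was lowest in mouse 92 at 6.59, against 7.42 and 7.44 in mice 103 and 106, and did not pass the test (adjusted p = 0.447, limma). Itga6 was lowest in mouse 103. The thymocyte sum was also lowest there, at 15.45. Of the 7 thymocyte genes, 4 were lowest in mouse 103, among them Rag1 at 13.81, 13.38 and 13.58 in mice 92, 103 and 106. Ptcra and Thy1 were highest in mouse 103. The sum of every other marker list was highest in mouse 103, though nearly level for the fibroblast and endothelial list. The platelet list, with 4 of 6 genes above background and Pf4 and Ppbp below it on every array, summed to 9.03, 9.24 and 9.04 in mice 92, 103 and 106. The thymic epithelial list, with 6 of 8 genes above background and Foxn1 below it throughout, summed to 9.94, 10.24 and 10.06. The macrophage and dendritic cell list (8 of 11 above background) summed to 11.40, 12.11 and 11.61, the list of gamma-delta T and NK cells (6 of 8) to 10.66, 11.29 and 10.95, and the fibroblast and endothelial list (5 of 9) to 10.63, 10.64 and 10.56. The part of these cells in the values of the members was not tested.

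**Figure D3:**
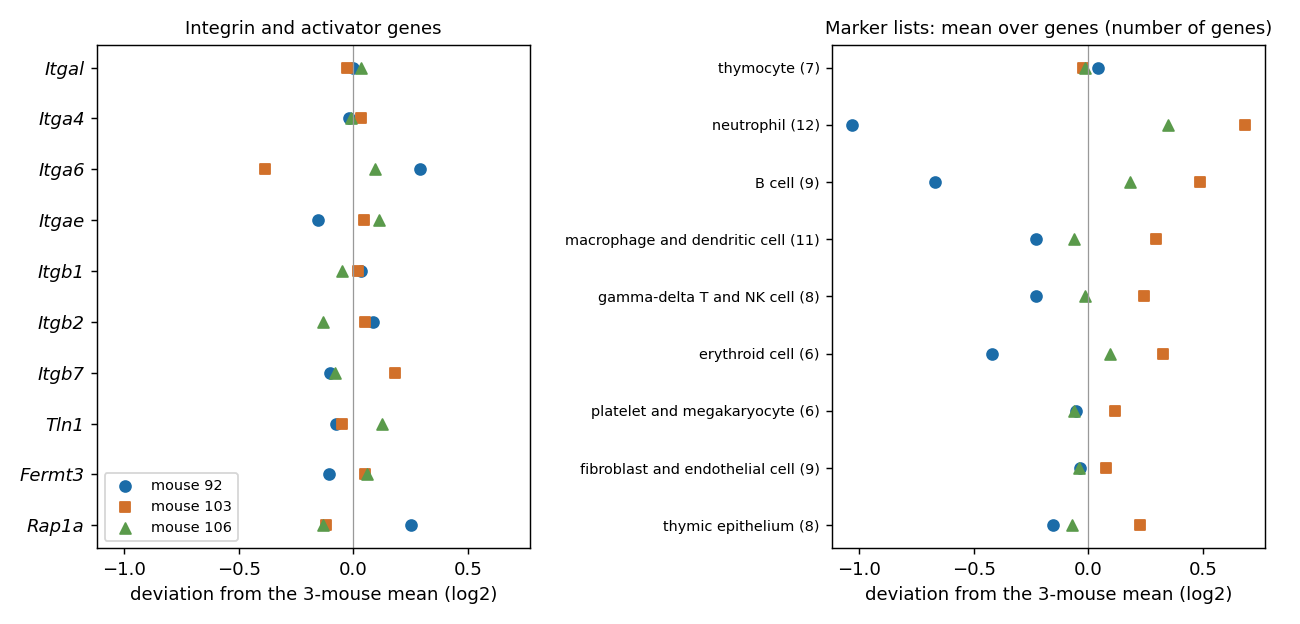
Deviation from the 3-mouse mean (log2) in each mouse, for the 10 integrin and activator genes on the left and as means over the genes of 9 marker lists on the right, on the same scale. The integrin genes stay within 0.39 of their means, whereas the neutrophil list lies at -1.03 in mouse 92 and 0.68 in mouse 103.

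Beyond the members, 67 of 69 further genes of the integrin pathway had a probe set, and 53 of these passed the background rule on all 3 arrays, 79.1% against 61.8% of all named genes. By role, 9 of 14 other alpha subunits, 2 of 5 other beta subunits and 2 of 4 further talin, kindlin and RAP1 genes passed. So did 9 of 10 genes listed as exchange factors or GTPase activating proteins of RAP1, among them Rasgrp1, known chiefly for RAS. All 9 RAP1 effectors and signalling adaptors and all 6 integrin inhibitors passed, as did 9 of 10 adhesion complex linkers and 7 of 9 ligands. The variance test called 0 of the 58 pathway genes tested (limma), and 4 had an unadjusted p under 0.05, against 0.225% and 4.85% of all genes tested.

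Genes listed as acting between the T cell receptor and RAP1 were read next. Rasgrp1, known chiefly as an exchange factor for RAS, was at 12.03 ± 0.074 (SD, n = 3, log2). Rasgrp2, a RAP1 exchange factor that responds to calcium, was at 10.42 ± 0.066, and Rapgef1, recruited by CRK adaptors, at 8.92 ± 0.044 (SD, n = 3, log2). Sipa1, a GTPase activating protein that turns RAP1 off, was at 10.31, 10.36 and 10.30 in mice 92, 103 and 106. Of the effectors, Rassf5, which encodes RAPL, was at 10.58 ± 0.17, its kinase partner Stk4 at 11.93 ± 0.11 and Apbb1ip, which encodes RIAM, at 10.03 ± 0.25 (SD, n = 3, log2). The adaptor genes Skap1 and Fyb, which link the T cell receptor to RIAM, were at 10.65 ± 0.15 and 11.01 ± 0.17, and the myeloid relative Skap2 at 7.46 ± 0.097.

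Genes that restrain integrins were also above background. Flna, whose product competes with talin for the beta tail, was at 11.40 ± 0.090, Sharpin, which binds inactive alpha chains, at 10.07 ± 0.092, and Cytip, which releases cytohesin from the membrane, at 11.30 ± 0.16 (SD, n = 3, log2). Rhoh, a GTPase of blood cells, was at 11.23 ± 0.20 (SD, n = 3, log2). Ligand genes were read in the same RNA. Icam1 and Icam2, ligands of the Itgal and Itgb2 pair, were at 8.32 ± 0.17 and 9.53 ± 0.044, Vcam1, a ligand of Itga4, at 7.78 ± 0.36 and Cdh1, the E-cadherin bound by Itgae with Itgb7, at 6.84 ± 0.35 (SD, n = 3, log2). Madcam1, the gut ligand of Itga4 with Itgb7, was below background on every array at 5.60, 5.98 and 5.77.

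**Figure D4:**
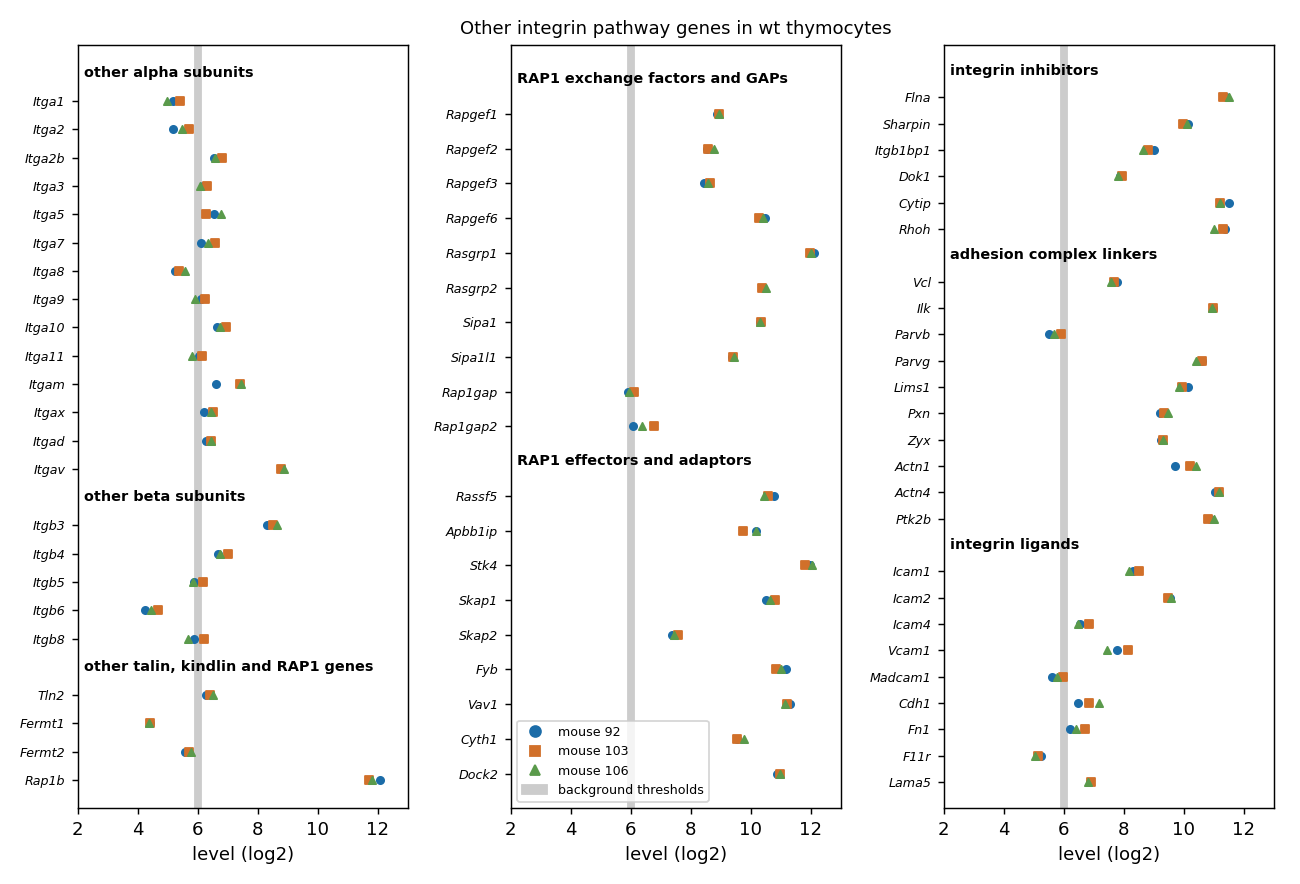
Levels (log2) of 67 further genes of the integrin pathway in each mouse, grouped by role, with the grey band spanning the background thresholds of the 3 arrays. Of the 67 genes, 53 lie above the threshold of every array, and 9 lie below it on all 3.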

How the data were processed

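The deposited table holds log2 levels of 35557 probe sets on 3 arrays; the log2 scale was inferred from its range. The submitters' processing notes name Affymetrix Expression Console; its version and its background correction and normalisation steps are not stated there, and arrays not analysed here may have entered that normalisation. Platform annotation gave 21789 probe sets a single symbol; probe sets of a gene were averaged. No genome build is given for the probes.

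An intercept was fitted per gene with limma 3.58.1 in R 4.3.3, with a trended prior that was not robust (10.4 prior degrees of freedom), and each variance was tested against its prior by an upper-tail F ratio with Benjamini-Hochberg adjustment over 13316 genes. Nothing in the labels beyond the mouse numbers says how samples were taken, so p-values reflect only how these 3 samples differ, which may be technical. The test was checked on simulated data. Alternatives changed the normalisation, prior, filter, background threshold and probe set rule, or left out a mouse. The genes named were all members, a set of pathway genes chosen by function, and the marker of each list with the smallest p, given where it passed. Genes named outside these rules include the sex-linked transcripts, other alpha subunits that pair with Itgb1, and further markers such as Cxcr2, Mmp8, Hemgn and Pf4. The members, lists and tests were chosen with earlier results of these data known.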

Additional observations from a re-analysis of the deposited data

How the results depend on the processing

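All 10 members stayed above background on all arrays under the 9 alternatives tried, including the 99th percentile of the receptor genes, where 46.8% of named genes passed. The pathway count of 53 ranged from 38 at that percentile to 55 without mouse 106. No member and no pathway gene was called in the limma variance test under any alternative run. Itga6 had adjusted p-values from 0.254 to 0.998 (limma) and an unadjusted p under 0.05 except without mouse 103. The count of varying genes, 30, was 18 after quantile normalisation, 15 after median centring, 18 after cyclic loess and 44 with a robust prior, and between 51 and 84 with 1 mouse left out (58 without mouse 92, 51 without mouse 103, 84 without mouse 106); the cause was not tested. Mouse 92 was lowest for 2 in place of 5 members after median centring, and for 6 after quantile or cyclic loess normalisation. The order of the mice changed for 6 members under median centring and for 4 under quantile or cyclic loess normalisation. No paired analysis was possible because the labels give a single group.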

Other observations

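Among the further pathway genes, the 4 with an unadjusted p under 0.05 were Itgam, Actn1, Vcam1 and Cdh1, named here after their values were seen. Actn1, which encodes an actinin that links integrin tails to actin, read 9.69 in mouse 92, against 10.22 and 10.41 in mice 103 and 106 (log2). Vcam1 was at 7.78, 8.15 and 7.43, highest in mouse 103, and Cdh1 at 6.49, 6.85 and 7.18, highest in mouse 106, for mice 92, 103 and 106. The adjusted p-values (limma) were 0.730 for Actn1, 0.829 for Vcam1 and 0.982 for Cdh1, so that none passed.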
